A study of Mus musculus with 2 samples.

Results

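Among the cell barcodes of this mouse melanoma capture, 810 held the reads of a macrophage and of a CD8 T cell together, and they are called mixed barcodes here. A macrophage barcode had at least 3 of Csf1r, C1qa, C1qb, C1qc, Adgre1, Fcgr1 and Lyz2 at 5 or more counts, and a mixed barcode also had Cd8a and either Cd3d or Cd3e at 5 or more. Of 11318 barcodes with at least 500 genes and at most 25% mitochondrial counts, 1453 were macrophage barcodes, and the mixed barcodes made up 55.7% of these (exact 95% interval 53.1 to 58.3). They were 7.16% of all 11318 and 17.9% of the 4533 that met the Cd8a and Cd3 criterion. Another 468 macrophage barcodes (32.2%) had Cd8a, Cd8b1, Cd4, Cd3d and Cd3e all under 5 counts and served as macrophage-only barcodes, and 175 met neither definition. The T cell comparator was 3514 CD8 T cell barcodes, which met the same Cd8a and Cd3 criterion with Cd4 under 5 counts and at most 1 of the 7 macrophage genes.

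The cells came from subcutaneous B16F10 tumours, a transplantable mouse melanoma line, at day 14 and were positively selected for CD3 after a Percoll step. Wild-type cells and cells labelled Nr4a KO were marked with hashtag antibodies, pooled and loaded into 1 BD Rhapsody capture of about 20000 cells, which gave 1 mRNA library and 1 hashtag library. Every group below therefore mixes both genotypes, the labels do not say which genotype a hashtag marks, and no comparison has replicates or a p-value. Intervals are exact binomial (Clopper-Pearson) and cover counting error only. Barcodes that passed held 4142 to 892142 counts (median 26436), and 6 hashtags carried enough barcodes to compare values between them.

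Macrophages are phagocytes that take up dying cells, present peptides on MHC class II and attract T cells with chemokines such as Cxcl9, which interferon gamma induces. CD8 T cells recognise tumour peptides on MHC class I through the T cell receptor and kill with perforin and granzymes. Under lasting antigen they pass from Tcf7-expressing, PD-1-bearing precursors to exhausted cells rich in inhibitory receptors. In a table of barcodes, a macrophage and a T cell captured together, attached or not, and a macrophage holding T cell material cannot be told apart.

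Markers of both cell types were present in most mixed barcodes, also those outside the rule. Cd8a, the coreceptor chain used in the rule (GRCm38 chromosome 6, 71373427 to 71379173, plus strand), had a median of 59 counts in mixed barcodes (quartiles 32 and 98), 43 in CD8 T cell barcodes (22 and 77) and 0 in macrophage-only barcodes. Cd8b1, the other coreceptor chain, was present in 95.4% of mixed and 89.8% of CD8 T cell barcodes, where present means 5 or more counts. Trac, the T cell receptor alpha constant gene, was not part of the rule and was present in 94.4% of mixed, 91.9% of CD8 T cell and 5.34% of macrophage-only barcodes. Its medians were 46, 38 and 0 counts. On the macrophage side, C1qa, a subunit of complement C1q used in the rule (chromosome 4, 136895917 to 136898803, minus strand), had a median of 134 counts in mixed (quartiles 42 and 252), 82 in macrophage-only and 0 in CD8 T cell barcodes. Cd74, the invariant chain of MHC class II and no part of the rule, had medians of 500.5, 430.5 and 1. All 7 macrophage genes were present in 355 mixed barcodes (43.8%). At the edge of the rule, the 10 mixed barcodes with 5 or 6 Cd8a counts had a median of 973.5 T cell-restricted counts (defined next), and the 9 macrophage barcodes just outside, with 3 or 4 Cd8a counts and a Cd3 gene, had 822.

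Sums over many genes were also compared. A gene was called T cell-restricted when its CPM (counts scaled to the same total) was at least 10 times higher in CD8 T cell than in macrophage-only barcodes, with 100 or more counts in all, and macrophage-restricted in the reverse case, which gave 881 and 808 genes. The sets hold the genes of the rule (Cd8a, Cd3d, Cd3e and the 7 macrophage genes), so the sums below are in part fixed by the rule. Mixed barcodes held a median of 2321.5 T cell-restricted counts (5th and 95th percentiles 817 and 6799), CD8 T cell barcodes 1969.5 (603 and 5345) and macrophage-only barcodes 47 (11 and 226). Of the mixed barcodes, 98.3% were above the 5th percentile of CD8 T cell barcodes. Their macrophage-restricted counts had a median of 8943 against 8967.5 in macrophage-only and 140 in CD8 T cell barcodes. A mixed barcode thus held 1.18 times the T cell counts of a CD8 T cell barcode and 0.997 times the macrophage counts of a macrophage-only barcode. Across the 810 mixed barcodes the log10 sums of both gene sets correlated only weakly (Pearson r = 0.20, Spearman rho = 0.21), although both sums share the barcode's depth.

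**Figure D1:**
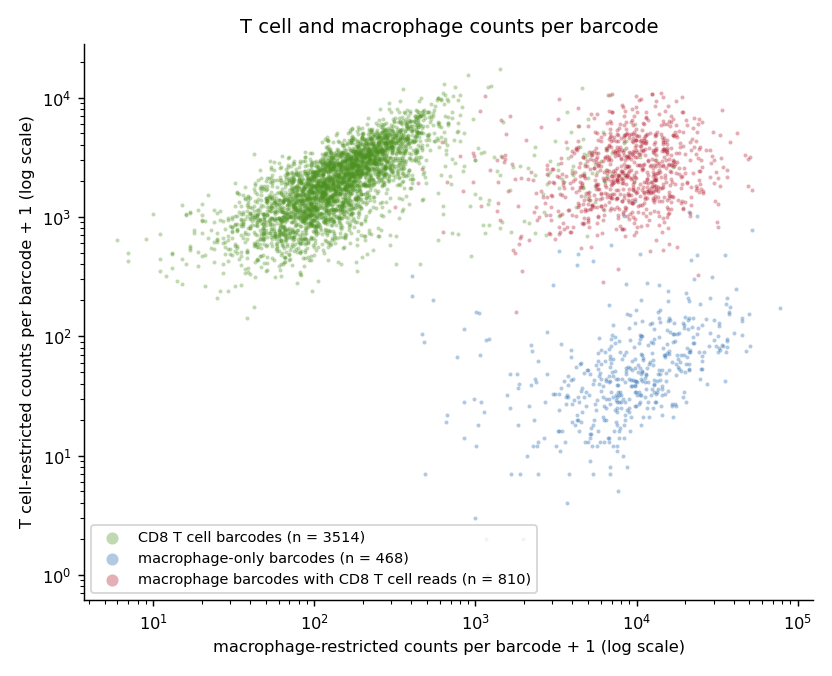
Macrophage-restricted counts (x axis) and T cell-restricted counts (y axis) of every barcode of the 3 groups, each plus 1, on log scales. The 810 mixed barcodes lie level with CD8 T cell barcodes on the y axis (medians 2321.5 and 1969.5) and level with macrophage-only barcodes on the x axis (medians 8943 and 8967.5).

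Mixed barcodes were deeper than either comparator. They had a median of 98329 counts and 4806.5 genes, macrophage-only barcodes 48427.5 and 3046.5, and CD8 T cell barcodes 32762 and 2501. The mixed median was 2.03 times that of macrophage-only and 3.00 times that of CD8 T cell barcodes, and 1.21 times the sum of both medians (81189.5). Mitochondrial shares had medians of 5.15%, 4.39% and 5.29%. By their share of restricted counts, 49.3% of the counts of mixed barcodes came from the T cell part (42.7 to 55.1% over the 6 hashtags) and 46.9% from the macrophage part. A non-negative least-squares fit of all genes, with 1 macrophage and 8 T cell reference profiles, gave a T cell part of 53.9%. Within single hashtags the fit gave 50.7 to 71.1%, so the pooled value lay near the low end of the hashtags.

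**Figure D2:**
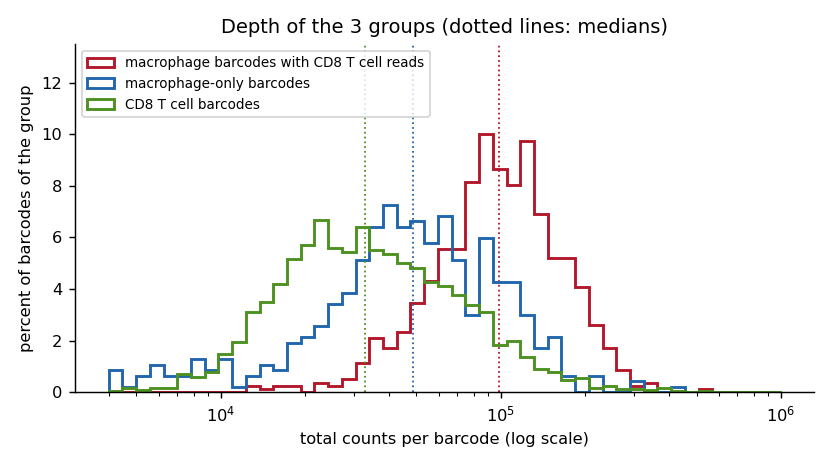
Distribution of total counts per barcode (x axis, log scale) as percent of the barcodes of each group (y axis), with dotted lines at the medians. The mixed barcodes peak to the right of both other groups, with a median of 98329 against 48427.5 and 32762, and all 810 lie below the highest CD8 T cell barcode.

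How many macrophage barcodes were mixed depended on depth and on hashtag. The share was 41.8% of the barcodes with 3 of the 7 macrophage genes, 42.7% with 4, 57.5% with 5, 58.2% with 6 and 61.8% with all 7. When the 6873 barcodes deep enough were thinned to 20000 counts, 510 of 1239 macrophage barcodes (41.2%) were mixed. Left out as shallower were 7 mixed and 59 macrophage-only barcodes, so the loss fell unevenly on the groups. Over the 6 hashtags the share was 35.7% at the lowest, 53.8% at the median and 76.7% at the highest. Melanoma barcodes, chosen by at least 3 of the pigment genes Pmel, Mlana, Dct, Tyrp1 and Tyr and fewer than 3 macrophage genes, met the CD8 criterion in 146 of 1458 cases (10.01%, 8.52 to 11.7), with a higher median depth of 147740 counts. Barcodes with enough genes of both kinds were counted as macrophage barcodes alone, among them 109 mixed and 23 macrophage-only barcodes with the pigment genes. Neutrophil barcodes, also with fewer than 3 macrophage genes, met the CD8 criterion in 3 of 101 (2.97%, 0.617 to 8.44), with a lower median of 9607 counts. Macrophage barcodes carried CD8 T cell reads more often than these melanoma barcodes did, but only the melanoma class left out barcodes with genes of the other kind. The part of depth and of this choice in the gap was not tested.

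Where T cell reads on macrophage barcodes could be typed by coreceptor, they were rarely those of CD4 cells. Only 24 macrophage barcodes had Cd4 with a Cd3 gene and neither Cd8a nor Cd8b1 at the criterion. These belong to the 175 macrophage barcodes that met neither definition, most of which were not typed. Those 175 had a median of 647 T cell-restricted counts, against 47 in macrophage-only barcodes. Among macrophage barcodes with either CD4 or CD8 T cell reads, leaving out those with both, CD4 made up 3.00% (24 of 800, interval 1.93 to 4.43). Among T cell barcodes with at most 1 macrophage gene it made up 20.1% (883 of 4397, 18.9 to 21.3). The macrophage value was lower in 6 of 6 hashtags, with ranges of 0 to 9.68% and 11.8 to 28.5%. Counting barcodes with both coreceptors as CD4-bearing left 6.95% against 22.1%. Foxp3, the regulator of regulatory T cells, was present in 1.98% of mixed and 1.91% of CD8 T cell barcodes.

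Genes of the T cell receptor and its signalling had ratios near 0 between mixed and CD8 T cell barcodes. Ratios below compare a gene's share of the T cell-restricted counts and are given as log2 of mixed over CD8 T cell barcodes. This lessens the macrophage part without removing it, since restricted genes may have low levels in macrophage-only barcodes. The 15 receptor and CD3 genes had ratios from -0.16 to 0.12 with a median of -0.01, against 0.00 for all 881 genes. Cd3d and Cd3e among them were used in the rule, and the other 13 ran from -0.16 to 0.09 with the same median. A gene was called when its log2 ratio was at least 1 in size with the same sign in all 6 hashtags. None of the 15 was called, and of all 881 genes 0.227% were called higher and 1.25% lower, so a count of 0 in a list of this size is near that background. Trbc2, the beta constant gene, stood at 0.06, Lck, the kinase that starts receptor signalling, at -0.01 and Zap70, the kinase recruited to the phosphorylated receptor, at -0.10.

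Genes of the killing programme had similar presence from all counts, and Gzmb and Prf1 stood lower at equal T cell depth. Gzmb, the main granzyme of activated CD8 cells, was present in 73.5% of mixed and 72.1% of CD8 T cell barcodes, with medians of 34 and 35 counts and a ratio of -0.24. Prf1, the pore-forming perforin, was at 52.6% and 49.5% (ratio -0.38). Ifng, interferon gamma, was at 47.3% and 44.1% with a ratio of -0.24, and it was lower in 6 of 6 hashtags (-1.34 to -0.44), a range that leaves out the pooled value, which also covers barcodes called for no hashtag or for 2. Thinned to 1000 T cell-restricted counts per barcode, which kept 739 mixed and 2863 CD8 T cell barcodes, Gzmb was present in 70.8% (67.3 to 74.0) against 76.0% (74.4 to 77.6) and Prf1 in 36.8% (33.3 to 40.4) against 43.2% (41.4 to 45.1). At that depth Ccl5, a T cell chemokine, was at 88.2% (85.7 to 90.5) against 81.1% (79.6 to 82.5), and Xcl1, the chemokine for Xcr1-bearing dendritic cells, at 12.99% (10.7 to 15.6) against 7.86% (6.90 to 8.91). From all counts Ccl5 was also present in 25.4% of macrophage-only barcodes, and how much of it came from the macrophage part was not tested. The intervals of these 4 genes did not overlap, with Gzmb and Prf1 lower and Ccl5 and Xcl1 higher in mixed barcodes. They were picked from the restricted genes of all T cell lists thinned in this way, most of which had overlapping intervals. Cd8b1, Tnfrsf4, Ccr7 and Tcf7, from other lists, also had intervals apart, each higher in mixed barcodes. Ifng and Gzma, lower in mixed barcodes, and Gzmk, Fasl and Nkg7, level or higher, had overlapping intervals at that depth. Gzma was the 1 called gene among the 9 restricted genes of the other cytotoxic list (median -0.03) and is described below.

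Inhibitory receptors and exhaustion factors had ratios near or above 0. Pdcd1 (PD-1) was present in 64.4% of mixed and 53.2% of CD8 T cell barcodes, and at equal T cell depth in 44.8% (41.2 to 48.5) and 41.6% (39.8 to 43.5). Lag3, an inhibitory receptor that binds MHC class II, was at 64.0% and 63.3% at equal depth, and Tox, the factor that sets up exhaustion, at 47.8% and 45.1%. The 6 restricted genes of the inhibitory receptor list had ratios from -0.06 to 0.58 (median 0.10) and the 3 exhaustion factors 0.00 to 0.08. None of these 9 was called, which is near the background of all 881 genes. Havcr2 (TIM-3) could not be assigned, since 26.5% of macrophage-only barcodes had it, against 55.9% of mixed and 33.5% of CD8 T cell barcodes.

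**Figure D3:**
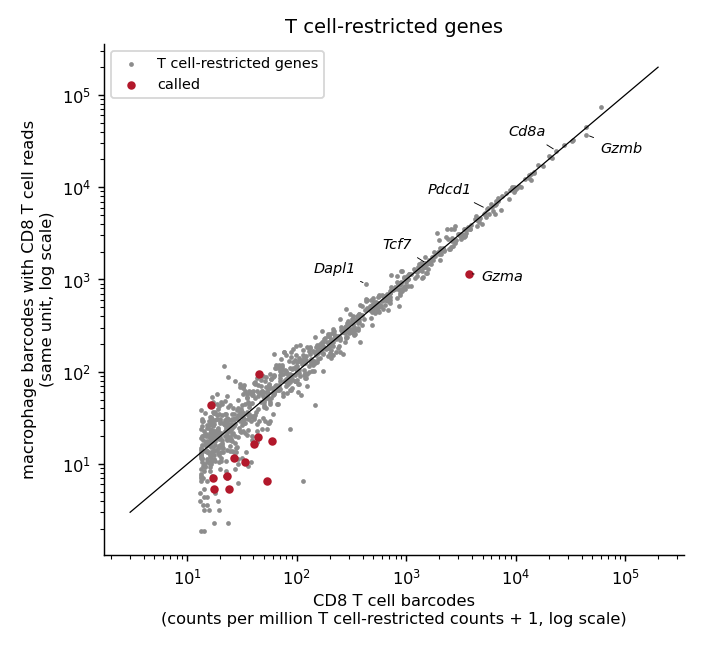
Share of each of the 881 T cell-restricted genes among T cell-restricted counts (scaled to the same total, plus 1, log scales) in CD8 T cell barcodes (x axis) and mixed barcodes (y axis), with the line of equality. Most genes lie along the line, 71.9% within 0.5 on the log2 scale, and of the 13 called genes in red Gzma alone has a high level.

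Of the 881 T cell-restricted genes, 13 were called, 2 higher (0.227%) and 11 lower (1.25%). Gzma, a granzyme shared with NK cells (chromosome 13, 113093825 to 113100981, minus strand), was present in 6.91% of mixed and 9.56% of CD8 T cell barcodes, and its ratio was -1.68 (-3.82 to -0.09 over hashtags). The top 1% of barcodes held 50.7% and 46.8% of its counts, so few barcodes set the value. The other 9 lower genes named by rule were Dnm3 (-3.02), Gpr52, Syde2, Ifngas1, 4930428O21Rik, Gm31114, Rbm44, Gm6211 and Tmem200b (-1.18), and each was present in under 1% of the barcodes of either group. The 2 higher genes, Lrrc29 (1.38) and 2810021J22Rik (1.09), were present in 0.988% and 1.98% of mixed barcodes. Because the CD8 T cell counts chose the gene set, sparse genes enter it when they are high there. The split also turned with the small number added before the logarithm: adding 5 counts to both groups alike, in place of amounts in proportion to their totals, gave 10 higher and 1 lower, and Gzma was the lower gene in that case too. Without hashtag A0303 the count was 21 and without A0305 it was 20.

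To ask which CD8 state the T cell part resembled, CD8 T cell barcodes were sorted by gates into 8 states, and each mixed barcode was given the state whose profile over the T cell-restricted genes made its counts most likely. CD8 T cell barcodes were assigned in the same way by profiles from the other barcodes of a split sample. Only 52.6% of these returned to their own gated state, so single assignments are weak. The cycling state, gated on Mki67 or Top2a, took the largest share in both, 29.6% of mixed (26.5 to 32.9) and 28.9% of CD8 T cell barcodes (27.4 to 30.4). The Havcr2 state took 20.1% and 18.8%, the state with granzymes C to F 4.94% and 6.77%, and the Gzmk state 7.53% and 7.63%. The profile of all mixed barcodes correlated best with that of all CD8 T cell barcodes (r = 0.98 over 881 genes), then with cycling cells (0.97), and least with the Tcf7 states (0.86 with and 0.85 without Pdcd1) and the Ly49 state (0.84). These references hold unequal numbers of counts, largest for the cycling state and smallest for the Ly49 state. Requiring a 20 times difference for restricted genes put the cycling share at 24.4% of mixed barcodes, just under the remaining ungated state at 25.2%. Proliferation genes lie outside both restricted sets. Mki67, a marker of cycling cells, was present in 42.8% of mixed, 31.6% of CD8 T cell and 15.8% of macrophage-only barcodes, and Top2a, a topoisomerase of dividing cells, in 45.6%, 33.4% and 10.5%. These shares were read from all counts, in which mixed barcodes were deepest. By level the mixed barcodes stood between the other groups, with Mki67 at 164, 293 and 108 CPM and Top2a at 210, 425 and 85.3 CPM in the same order.

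Of the 8 states, only both Tcf7 states had intervals that did not overlap between mixed and CD8 T cell barcodes. Tcf7 encodes TCF1, the factor of stem-like and precursor exhausted cells. Assigned to Tcf7 without Pdcd1, the naive or memory-like state, were 5.68% of mixed (4.19 to 7.503) and 12.3% of CD8 T cell barcodes (11.3 to 13.45), with the mixed value lower in 6 of 6 hashtags. Assigned to Tcf7 with Pdcd1, the precursor state, were 10% (8.02 to 12.3) and 6.63% (5.83 to 7.504), higher in 5 of 6 hashtags. The gates put only 73 CD8 T cell barcodes (2.08%) in that state, whereas 233 were assigned to it. Most of the CD8 T cell barcodes assigned there were thus gated to another state, and these shares do not measure precursor frequency. Read directly from the genes, Tcf7 and Pdcd1 were present together in 12.5% of mixed (10.3 to 14.9) and 4.67% of CD8 T cell barcodes (3.99 to 5.42), higher in 6 of 6 hashtags. At 1000 T cell-restricted counts the values were 5.68% (4.13 to 7.60) and 2.55% (2.00 to 3.20), higher in 5 of 6. Tcf7 without Pdcd1 was present in 8.02% of mixed (6.25 to 10.1) and 11.2% of CD8 T cell barcodes (10.2 to 12.3) from all counts, lower in 4 of 6 hashtags, and at 1000 T cell-restricted counts in 7.85% (6.01 to 10.03) and 7.20% (6.28 to 8.20). The lower share of that state from profiles was thus also seen in the pair of genes from all counts, but not at equal depth, where the intervals overlap. Among barcodes with at most 2500 T cell-restricted counts before thinning, Tcf7 with Pdcd1 was at 4.35% (2.51 to 6.96) and 3.37% (2.54 to 4.39), where the intervals overlap. Among barcodes called for 1 hashtag Tcf7 with Pdcd1 was at 5.93% (3.83 to 8.69) and 2.80% (1.92 to 3.93), where the intervals also overlap, by little.

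**Figure D4:**
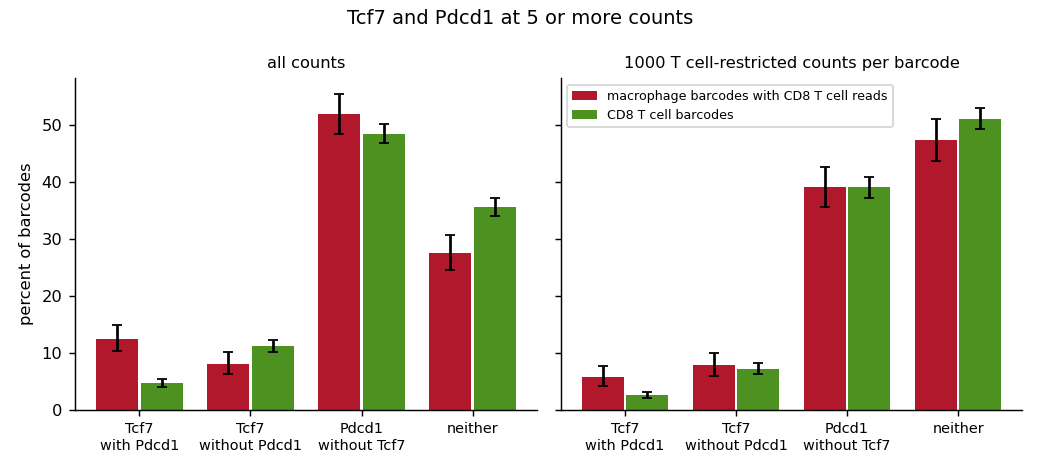
Percent of mixed barcodes (red) and CD8 T cell barcodes (green) with Tcf7 and Pdcd1 at 5 or more counts, from all counts (left) and at 1000 T cell-restricted counts per barcode (right), with exact 95% intervals that cover counting error only. Barcodes with both genes make up 12.5% and 4.67% on the left and 5.68% and 2.55% on the right.

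Other precursor and memory genes did not all point the same way. Ccr7, the homing receptor for lymphoid tissue, was present at equal T cell depth in 18.7% (15.9 to 21.7) against 11.2% (10.1 to 12.4), though activated dendritic cells also express it. Lef1, a partner of TCF1, was at 6.09% (4.48 to 8.06) against 6.36% (5.49 to 7.31). Dapl1, a gene of naive and memory cells, had a ratio of 1.05 but the opposite sign in 1 of 6 hashtags. The 7 restricted genes of that list had a median ratio of 0.11 and 0 were called. Ly49 receptors, most of them inhibitory receptors for MHC class I, differed among themselves. Klra3, the most frequent of the 10 genes of that list, was present in 20.6% of mixed (17.9 to 23.6), 6.52% of CD8 T cell (5.72 to 7.38) and 9.40% of macrophage-only barcodes (6.91 to 12.4), and belongs to neither restricted set. These shares were read from all counts, in which mixed barcodes were deepest. By level Klra3 differed little, at 42.6, 36.8 and 37.9 CPM in the same order. Any of the other 9 genes was present in 2.47% of mixed (1.51 to 3.79) and 5.83% of CD8 T cell barcodes (5.08 to 6.66), and setting Klra3 apart was chosen after the values were seen. The 3 restricted Ly49 genes had ratios of -4.13, -1.76 and -0.51 with 0 called. Ly49 genes are near-identical copies, and the sources used here do not say how reads were shared between them.

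On the macrophage side, the MHC class II genes had ratios just above 0. Ratios here compare shares of the macrophage-restricted counts as log2 of mixed over macrophage-only barcodes, and a call also needed the same sign in the 4 hashtags with at least 20 barcodes in both groups. All 6 restricted MHC class II genes were above 0 with 0 called (median 0.23, against -0.02 for all 808 genes), with H2-Aa at 0.25 and Cd74 at 0.24. The 10 restricted lysosome genes had a median of -0.02 and 0 called. The 4 restricted interferon gamma-induced genes had a median of 0.44 and 0 called. Among them, Cxcl9 (chromosome 5, 92321347 to 92328079, minus strand) was present in 56.7% of mixed and 43.8% of macrophage-only barcodes with a ratio of 0.56, above 0 in 4 of 4 hashtags.

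Of the 808 macrophage-restricted genes, 5 were called higher (0.619%) and 15 lower (1.86%), and 70.7% lay within 0.5 of equality. Because the macrophage-only counts chose this gene set, sparse genes enter it when they are high there, and the lower ratios are given as a description. Cd300e, an activating receptor of monocytes (chromosome 11, 115051917 to 115062177, minus strand), was present in 30.5% of mixed and 16.03% of macrophage-only barcodes, with a ratio of 1.36 (0.74 to 3.66 over hashtags). Sh2d1b1 (EAT-2), a signalling adaptor, was at 15.6% and 8.12% (1.33), and Klra17, a lectin-like receptor, at 23.7% and 13.2% (1.08). Tlr6, a receptor for bacterial lipopeptides, and Fcrl5, an Fc receptor-like protein, both stood at 1.01, just past the threshold. Fcrl5 fell under it without A0302, A0304, A0305 or A0306 (0.79 to 0.94), Tlr6 lost its call without A0301, A0302, A0304 or A0305 (0.95 to 1.00), and Klra17 stood at 0.99 without A0304 and 0.88 without A0306. Without A0303 the calls numbered 40, from 3 hashtags.

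The lower genes included matrix, chemokine and receptor genes. Fn1, fibronectin, was present in 12.6% of mixed and 22.4% of macrophage-only barcodes, with a ratio of -1.63 and the narrowest hashtag range of the 9 lower genes named here (-2.004 to -1.05). Gas6, the bridge between dying cells and the receptors Mertk and Axl, was at 6.30% and 16.9% (-1.86). Ccl24, an eosinophil chemokine, was at 1.85% and 6.84% (-2.43), and Slc40a1, the iron exporter ferroportin, at 1.23% and 4.06% (-2.43). The Slc40a1 ratio ran from -5.95 in A0303 to -0.17 in A0301 and was -1.62 without A0303. Ednrb, an endothelin receptor, stood at -1.77, and Npl, an enzyme of sialic acid breakdown, at -1.25, or -0.81 and no longer called without A0306. The other 3 were present in few barcodes. Bmp2, a growth factor of the TGF-beta family, stood at -2.88 with 3 mixed and 14 macrophage-only barcodes, and Cgnl1, a junction protein, at -1.44 with 5 and 8. Cd209f, a lectin, stood at -1.72 with 2 and 8, and its sign turned without A0306.

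Within the lists, these lower genes were single members, beside 1.86% of all 808 genes called lower, and counts of 0 or 1 in lists of this size say little about a list. The Arg1 programme had 1 of 10 restricted genes called lower (Fn1) and a median of -0.48, with Arg1 itself, which breaks down arginine, at -0.46 and Mrc1, the mannose receptor, at -0.90. The list for uptake of dying cells had 1 of 11 called lower (Gas6) and a median of -0.18, with Mertk at -0.18 and Axl at 0.27. Monocyte genes had 0 of 4 called and a median of -0.61. Lyz2, used in the rule, was present in 87.9% of mixed and 94.2% of macrophage-only barcodes.

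**Figure D5:**
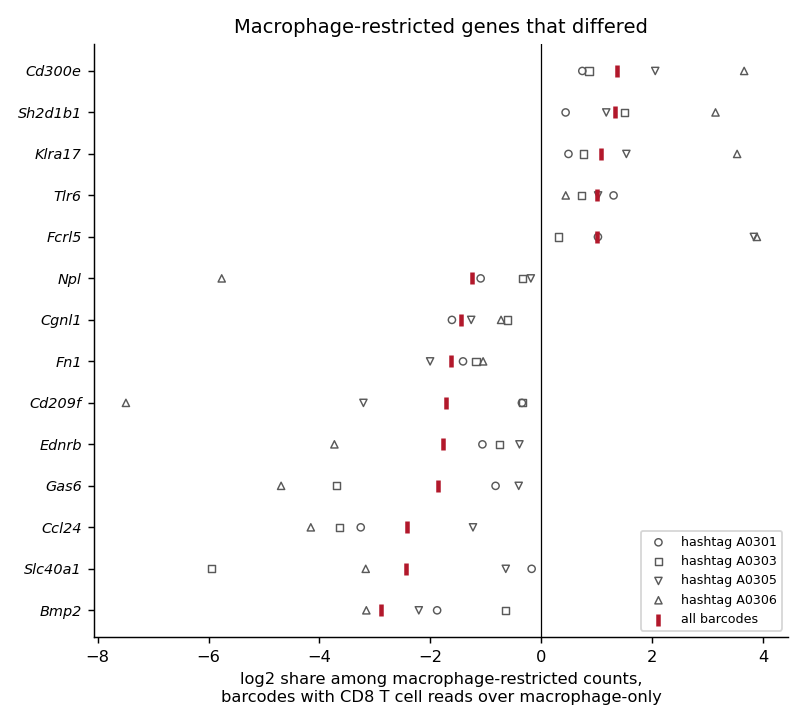
Log2 ratio of the share among macrophage-restricted counts, mixed over macrophage-only barcodes (x axis), for 14 called genes named by rule (y axis), over all barcodes (red bars) and in each of the 4 hashtags with at least 20 barcodes in both groups (open symbols). Every hashtag lies on the same side of 0 as the pooled value by the call rule, and the hashtags spread widely for Cd209f and Npl, down to -7.49 and -5.76 in A0306, and for Slc40a1, down to -5.95 in A0303.

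The mixed share of macrophage barcodes was also compared by Cxcl9 and Arg1. Among macrophage barcodes with Cxcl9 and no Arg1, 62.5% were mixed (424 of 678, 58.8 to 66.2), against 49.7% with Arg1 and no Cxcl9 (71 of 143, 41.2 to 58.1), 51.5% with both (35 of 68, 39.03 to 63.8) and 49.6% with neither (280 of 564, 45.4 to 53.9). The interval of the first class overlapped that of the class with both genes. Hashtags differed in mixed share (above) and in Cxcl9, present in 12.1 to 82.6% of their mixed barcodes, and within them the first class was highest of the 4 in 4 of 6, above Arg1 without Cxcl9 in 6 of 6 and above neither gene in 5 of 6, from as few as 2 barcodes in a class. Depth moved with this as well: the medians were 91767, 61923, 101992 and 63701 counts, and its part in the result was not tested. Within mixed barcodes, Ifng was present in 51.9% of those with Cxcl9 (238 of 459, 47.2 to 56.5) and 41.3% of those without (145 of 351, 36.1 to 46.7). The T cell-restricted medians were 2491 and 2112 counts, and Ifng was higher with Cxcl9 in 4 of 6 hashtags. Tcf7, at 21.6% and 19.1%, and Tox, at 63.0% and 61.3%, had overlapping intervals.

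Hashtags and other cell types gave further measures of mixing. Reads of 2 hashtags were called in 34.8% of mixed (31.5 to 38.2), 23.1% of macrophage-only (19.3 to 27.2) and 13.1% of CD8 T cell barcodes (11.96 to 14.2). Hashtag depth differed, with medians of 36, 39.5 and 9 counts, and among barcodes with at least 20 hashtag counts the shares were 42.0% (37.9 to 46.1), 28.3% (23.3 to 33.6) and 35.5% (32.0 to 39.2). Under a stricter call they were 16.8%, 13.03% and 4.18%, and the intervals of mixed (14.3 to 19.5) and macrophage-only barcodes (10.1 to 16.4) overlapped. The melanoma criterion was met by 13.46% of mixed, 4.91% of macrophage-only and 3.76% of CD8 T cell barcodes, while the summed melanoma list of 7 genes stood at 562, 681 and 1451 CPM. Xcr1 or Clec9a, which mark cross-presenting dendritic cells, was present in 162 mixed barcodes and both in 30, with Xcr1 at 17.3% against 10.04% of macrophage-only barcodes. Of the other dendritic cell genes, Wdfy4 was present in 15.7% and 14.7%, while Flt3 reached 5 counts in 0 of 810 mixed barcodes with a summed level of 0.610 CPM, so reads below that criterion were there. Ncr1, a receptor of NK cells, had no count in mixed or macrophage-only barcodes. The part of these cells in the results was not tested, and the total number of calls on either side moved by less than 1.5 times without barcodes that met the melanoma criterion or had Xcr1 or Clec9a. The split moved more: on the T cell side 4 genes were called higher and 7 lower without the melanoma barcodes, and 1 and 10 without the Xcr1 or Clec9a barcodes, where the macrophage side had 10 higher and 16 lower. Named genes also lost their call with the same sign. Without the melanoma barcodes these included Fcrl5 (0.71), Klra17 (0.91), Tlr6 (0.92), Slc40a1, Cd209f, Dnm3, Syde2 and Rbm44. Without the Xcr1 or Clec9a barcodes they included Gzma (-1.53), Lrrc29 and Tmem200b.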

How the data were processed

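The mRNA and hashtag libraries were deposited by the authors as whole-number counts per barcode. The submitters' processing notes list the build GRCm38 and, without roles, R 3.5.3, Bowtie2 in versions 2.3.4.1 and 2.4.2, and cutadapt 2.10. Per the labels the reads carry molecular identifiers, but the sources used here do not say whether counts were collapsed by them. Non-zero counts had a median of 7, and 56.1% of them exceeded 5, so they were treated as reads, which are not independent molecules, and a gene was scored as present at 5. The table held 27635 genes and 12016 barcodes. Scripts ran in Python 3.11.15 with scipy 1.17.1, pandas 2.3.3, numpy 2.4.6 and matplotlib 3.10.9.

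Hashtags were called by likelihood against the background seen in barcodes that are absent from the mRNA table and hold fewer than 10 hashtag counts, over 12 of 14 hashtags, with a gain of at least 3 for each added hashtag. Values per hashtag use barcodes called for exactly 1. Exactly 1 was called in 55.2% of mixed, 65.8% of macrophage-only and 40.0% of CD8 T cell barcodes, so these values leave out many barcodes. Restricted-gene ratios were taken on summed counts with 5 counts added on average, in proportion to each group's total; this scaling replaced equal addition after the values had been seen. Named genes are the 10 highest and 10 lowest called ratios per comparison with at least 100 summed counts in a group, plus examples from gene lists; 1 gene so chosen is not reported here. Members, lists and rules were chosen with earlier results of these data known. Doublets were not removed, since barcodes with reads of 2 cell types are the subject. A fit of 2 parts, the state assignment, the hashtag calls and the ratios were tested on simulated data, the ratios with another scaling than the one reported. Gates were not tested in this way.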

Additional observations from a re-analysis of the deposited data

Results flagged for a closer look

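Of 13 values looked at over the 6 hashtags, 2 had a hashtag whose gap to the others was large for its range, and chance gives such a gap in about 1 in 20. The median macrophage-restricted count of mixed barcodes was 12492 in A0303, with 7191.5 the lowest of the 6. Mixed barcodes assigned to the Gzmk state made up 24.2% in A0302, which had 33 mixed barcodes, and 2.90% in the lowest hashtag.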

How the results depend on the processing

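Of 93 recomputed summary values, 77 stayed close to the reported ones. The share of macrophage barcodes that were mixed was 52.2% with 10 counts in the gates, 52.5% among barcodes with exactly 1 hashtag and 41.2% after thinning to 20000 counts. The depth ratio to macrophage-only barcodes was 1.91 with 4 of 7 macrophage genes and 1.91 among barcodes with exactly 1 hashtag. The cycling share was 24.4% with genes restricted at 20 times, where the ungated state took 25.2%. Called macrophage-restricted genes numbered 11 with 10 counts in the gates, 31 with no minimum count and 33 among barcodes with exactly 1 hashtag. Barcodes with 2 hashtags made up 16.8% at a log likelihood gain of 6. The cause of these shifts was not tested.

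With each hashtag left out in turn, the share ran from 54.4 to 57.7%, the depth ratio from 1.95 to 2.16, the T cell part from 53.2 to 56.1% and the cycling share from 28.1 to 32.8%. Called genes ran from 14 to 21 on the T cell side and from 15 to 40 on the macrophage side, where fewer hashtags need fewer matching signs. Cd209f ran from -1.82 to 0.30, the latter without A0306. Over 27 named genes, 383 of 436 recomputations kept the call, 52 lost it with the same sign and 1 turned sign. No paired analysis was possible because the 2 samples are the libraries of a single capture; the hashtags separate pooled sources within it, and their values stand beside the pooled ones with no test. Left-out melanoma or Xcr1 and Clec9a barcodes, the equal addition and the further Tcf7 settings were chosen after seeing the data.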

Other observations

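Genes of neither restricted set were compared with a fit of the macrophage-only and CD8 T cell profiles to the mixed barcodes. Of 5412 such genes with at least 2000 counts in mixed barcodes, 99.2% lay within 0.5 of the fit on the log2 scale; the fit was made on all genes, these included. Another 17 were above and 25 below, and the genes named next were chosen after their values were seen. Klrb1b, a lectin-like receptor gene, was highest, at 76.8 CPM against a fitted 38.3 (log2 0.98). The 3 genes below by over 1 were Tyrp1 and Mlana, pigment cell genes, at -1.33 and -1.03, and Sparc, a matrix protein gene, at -1.24. Spp1, which encodes osteopontin, stood at -0.86.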
